A study of Mus musculus with 6 samples.

Results

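The talin genes Tln1 and Tln2 and the IQGAP scaffold genes Iqgap1, Iqgap2 and Iqgap3 were followed in CAD cells, a mouse neuroblastoma line, after transfection with a plasmid that expresses the brain-enriched microRNA precursor miR-124a-2. Every probe set that the platform annotation assigns to 1 of these 5 genes was taken, which gave 17 of the 45101 probe sets on the array and 5 of 18193 named genes. Tln1 and Tln2 had 3 probe sets each, Iqgap1 had 7, and Iqgap2 and Iqgap3 had 2 each. The genes were chosen on values of the comparison described below, in which the brightest probe sets of Tln1 and Iqgap1 were already known to be lower with miR-124a-2. Their log2 fold changes are therefore given as a description, with standard errors and without p-values.

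The first group was 3 arrays from cells given the RIPmiR-124a-2 plasmid, and the second was 3 arrays from cells given the same RI vector without an insert (empty vector). Both groups were the same line in serum-supplemented medium, and each array was labelled as a biological replicate. No untransfected cells entered the comparison, and the share of cells that took up a plasmid is not given in the sources used here. An array of bulk RNA cannot tell fewer cells carrying a transcript from less of it per cell. The study's question is how supplying miR-124 alters the RNA of a neuronal line.

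Talins are large cytoplasmic adaptors that bind the tails of beta integrins through a FERM head, switch integrins to their active state, and tie them to actin directly and through vinculin. Tln1 is widely expressed, and Tln2 is prominent in brain, heart and muscle. IQGAP proteins are scaffolds with a calponin homology domain that binds actin, a set of IQ motifs, and a domain related to Ras GTPase-activating proteins that binds Cdc42 and Rac1 without speeding their GTP hydrolysis. Iqgap1 is the widespread form and is found at the leading edge and at cell contacts, including growth cones.

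Signals are log2 values and ran from 2.59 to 14.39 over the 6 arrays. A bacterial control transcript, absent from the labelled RNA, averaged 3.37 to 3.50 per array and marks the level of signal without a target. Of the catecholaminergic neuroblastoma markers, 8 of 10 measured had a mean of at least 5 on the log2 scale, among them Th and Dbh, while Slc18a1 and Slc18a2 did not. Fibroblast markers had 1 of 6 at that level, glial markers 1 of 4, macrophage markers 1 of 4, platelet and leukocyte markers 1 of 3 and epithelial markers 2 of 3. No marker of any list passed the test between the groups. Ptbp1, a splicing repressor and known target of miR-124, averaged 10.78 ± 0.22 in miR-124a-2 plasmid arrays and 12.02 ± 0.04 in empty vector arrays (SD, n = 3 each). The log2 difference, plasmid minus empty vector, was -1.24 with SE 0.12 (limma adjusted p = 0.0179). Ptbp1 did not pass in 7 of 20 alternatives: without any 1 array other than plasmid replicate 3 (limma adjusted p = 0.0561 to 0.168, log2 difference -1.26 to -1.14), by the mean of its probe sets (-0.48, limma adjusted p = 0.0932) and at a threshold of 0.01. Arrays with a narrow spread of signals (interquartile range 3.06 to 3.10) were plasmid replicates 1 and 2 and empty vector replicate 1, and those with a wide spread (3.26 to 3.35) were plasmid replicate 3 and empty vector replicates 2 and 3. Because the narrow arrays hold more plasmid samples, values within each set of arrays are given for the probe sets described.

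Sequence upstream of Tln1 and Iqgap1 is shown because probe sets of these genes passed the threshold in the same direction. RefSeq promoter windows (GRCm38.p6) were matched for 4 of the 5 genes, all but Tln2, and the 250 bases before the listed start were searched. The Tln1 window is chr4:43562584-43562833 and the Iqgap1 window is chr7:80803332-80803581, both on the minus strand and written 5′ to 3′. Capitals mark GGGCGG (the GC box) and CGGAAG (the core of sites for ETS factors), on either strand, so that CTTCCG is CGGAAG on the opposite strand.
Tln1: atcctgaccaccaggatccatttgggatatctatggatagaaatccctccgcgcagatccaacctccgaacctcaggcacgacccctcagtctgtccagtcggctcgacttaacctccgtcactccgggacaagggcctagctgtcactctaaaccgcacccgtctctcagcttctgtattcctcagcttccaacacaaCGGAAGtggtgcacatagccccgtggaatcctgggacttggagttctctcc
Iqgap1: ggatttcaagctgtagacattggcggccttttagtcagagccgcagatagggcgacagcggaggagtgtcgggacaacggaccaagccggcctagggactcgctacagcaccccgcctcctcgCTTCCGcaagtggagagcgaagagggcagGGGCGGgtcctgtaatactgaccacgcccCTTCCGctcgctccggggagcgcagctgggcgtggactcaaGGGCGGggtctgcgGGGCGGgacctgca
The Tln1 window held 1 CGGAAG, 51 bases before the start, and 0 GC boxes. The Iqgap1 window held 2 on the opposite strand, 127 and 69 bases before the start, and 3 GC boxes, 98, 28 and 14 bases before it. CGGAAG stood in 13.6% and GGGCGG in 32.7% of 32851 windows of the same length. CCAAT was in 33.8% of windows and, on the opposite strand, in that of Iqgap1, and TATAAA was in 12.4% of windows and in neither of those shown. The CArG box, the motif of serum response factor, stood in 1.47% of windows and in none of the 4 matched here. The Tln1 window had 12 CpG dinucleotides and the Iqgap1 window had 22, beside a median of 6 over all windows. Iqgap2 and Iqgap3 had no probe set past the threshold, and their windows had 33 and 11 CpG. In the same order those windows held 6 (overlapping ones counted) and 0 GC boxes, and 0 CGGAAG each. RefSeq places a part of the Iqgap1 gene further upstream than the start used for this window, and other starts were not searched.

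Of the 17 probe sets, 4 passed an adjusted p of 0.05 in a limma fit over 45037 probe sets, and all 4 were lower with miR-124a-2. They were 1 of 3 for Tln1 and 3 of 7 for Iqgap1. Over all probe sets tested, 0.209% were lower and 0.06% higher at that threshold, and no member was higher. Values did not overlap between the groups in 6 members, 5 lower and 1 higher, beside 6.97% lower and 6.28% higher of all probe sets. The median log2 fold change was -0.16 over the 17 members and 0.00230 over all probe sets, and since the members were chosen with this comparison known, nothing is read from these shares. A mean of at least 5 was reached by 12 of the 17, and the 5 dimmer ones were 2 of Tln1 and 1 each of Iqgap1, Iqgap2 and Iqgap3. The number of members past the threshold depended on which array was left out. It was 0 without plasmid replicate 1 or without any 1 of the 3 empty vector arrays, 1 without plasmid replicate 2 and 4 without plasmid replicate 3. Where it was 0 by limma, 5 to 10 of the 17 had an unadjusted p under 0.05, beside 2311 to 4247 of all 45037 probe sets. Nothing is read from that count either, as the members were chosen with this comparison known. Log2 fold changes of the 4 lay between -1.48 and -1.05 with any 1 array left out.

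**Figure D1:**
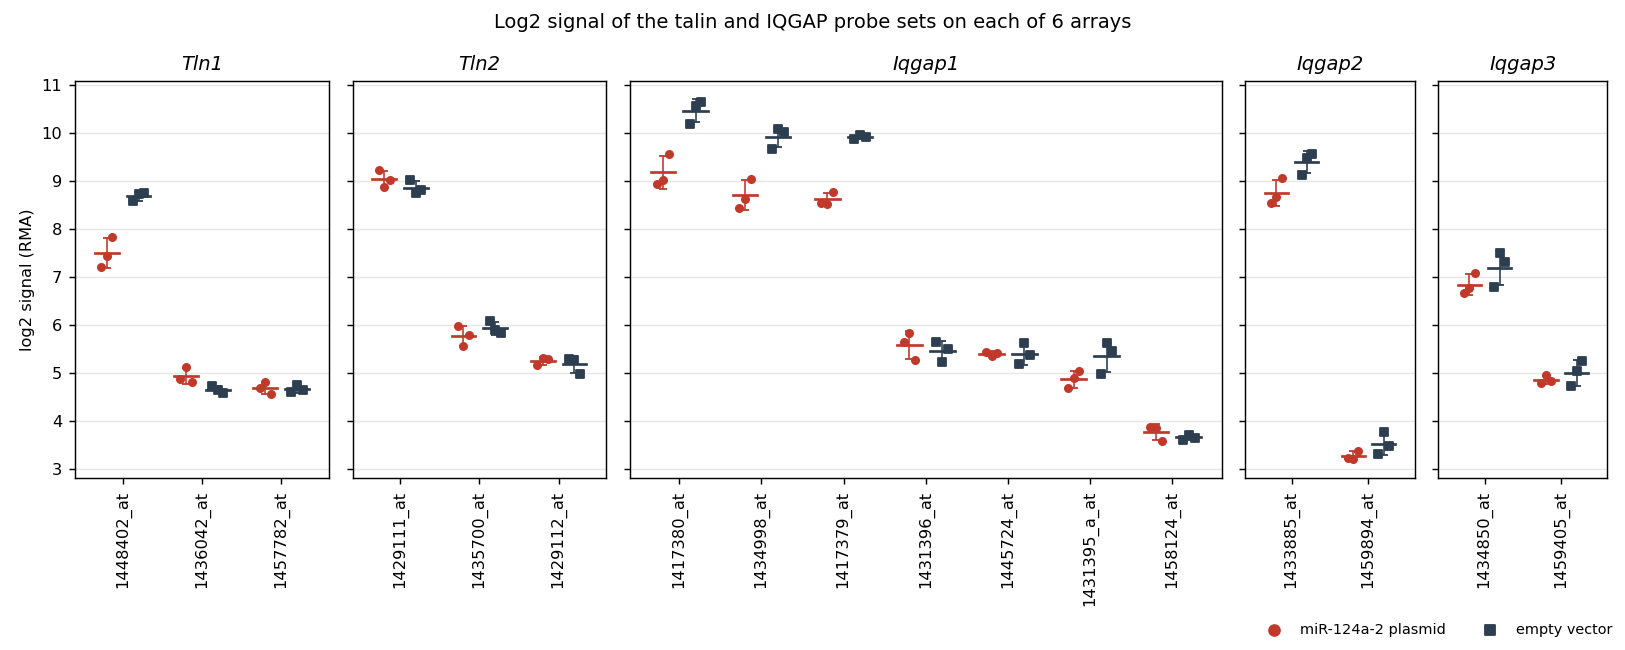
Log2 signal (vertical axis) of each of the 17 probe sets (horizontal axis) in 3 miR-124a-2 plasmid arrays (circles) and 3 empty vector arrays (squares), with bars for the mean and SD. The brightest probe set of Tln1 and the 3 brightest of Iqgap1 separate by group, with gaps of 0.62 to 1.09 between the nearest arrays, while the dimmer probe sets of both genes and all of Tln2 overlap, except 1436042_at of Tln1, where the plasmid arrays are higher by 0.07.

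Tln1, the widespread talin, was lower in its brightest probe set, 1448402_at. Signals there were 7.20, 7.44 and 7.82 in miR-124a-2 plasmid replicates 1 to 3, against 8.57, 8.73 and 8.75 in empty vector replicates 1 to 3. The highest plasmid array stood 0.75 below the lowest empty vector array, and the plasmid arrays were the more scattered group. Means were 7.49 ± 0.31 with miR-124a-2 and 8.68 ± 0.10 with the empty vector (SD, n = 3 each). That is a log2 fold change of -1.20 (SE 0.16), or 43.7% of the empty vector level, and it was -1.25 among narrow arrays and -0.92 among wide ones.

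The other 2 Tln1 probe sets did not show this difference. Probe set 1436042_at had 4.87, 5.12 and 4.80 in the plasmid arrays, against 4.73, 4.65 and 4.58 in the empty vector arrays. Those groups did not overlap, with the plasmid arrays higher by 0.07 at the nearest pair, and the log2 fold change of 0.28 (SE 0.11) did not pass. Probe set 1457782_at had 4.68, 4.80 and 4.56 in plasmid arrays, against 4.59, 4.75 and 4.64 in empty vector arrays, a log2 fold change of 0.02 (SE 0.10) with overlapping groups. Both had means under 5, so the Tln1 value rests on 1 probe set, and the mean of all 3 was -0.30 (SE 0.09).

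Tln2, the talin prominent in brain, showed no member past the threshold. Its brightest probe set, 1429111_at, had 9.22, 8.88 and 9.01 in miR-124a-2 plasmid arrays, against 9.0, 8.73 and 8.81 in empty vector arrays. Groups overlapped, and the log2 fold change was 0.19 (SE 0.12), 0.04 within narrow and 0.24 within wide arrays. Probe set 1435700_at had -0.16 (SE 0.13) and 1429112_at had 0.07 (SE 0.12), both with overlapping groups. Probe sets 1429111_at and 1429112_at were designed from the same sequence record, and the difference between Tln1 and Tln2 was not tested.

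Iqgap1, the widespread scaffold, was lower in its 3 brightest probe sets by nearly the same amount. Probe set 1417379_at had 8.54, 8.52 and 8.76 in miR-124a-2 plasmid arrays, against 9.86, 9.94 and 9.91 in empty vector arrays. Its groups were the tightest of the 4 that passed and the furthest apart, with 1.09 between the nearest arrays. Means were 8.61 ± 0.13 with miR-124a-2 and 9.90 ± 0.04 with the empty vector (SD, n = 3 each), a log2 fold change of -1.29 (SE 0.10) or 40.8% of the empty vector level.

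Probe set 1417380_at, designed from the same record as 1417379_at, had 8.94, 9.01 and 9.56 in plasmid arrays, against 10.18, 10.55 and 10.64 in empty vector arrays. Its log2 fold change was -1.29 (SE 0.19), or 41.0% of the empty vector level, with no overlap. Probe set 1434998_at had 8.44, 8.62 and 9.04 in plasmid arrays, against 9.66, 10.07 and 10.01 in empty vector arrays. The groups again did not overlap, and the log2 fold change was -1.21 (SE 0.18), or 43.1% of the empty vector level.

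In all 4 probe sets that passed, Tln1's included, plasmid replicate 3 was the highest plasmid array and empty vector replicate 1 the lowest empty vector array. The wide arrays were thus higher within both groups, by 0.59 for plasmid and 0.41 for empty vector arrays at 1417380_at, and by 0.23 and 0.07 in the same order at 1417379_at. Within the narrow arrays the Iqgap1 log2 fold changes were -1.33 for 1417379_at, -1.21 for 1417380_at and -1.13 for 1434998_at, and within the wide arrays they were -1.16, -1.03 and -1.003 in that order of probe sets. Each narrow value rests on 1 empty vector array and each wide value on 1 plasmid array.

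The other 4 Iqgap1 probe sets were between 3.71 and 5.52 in mean log2 signal and did not pass. Probe set 1431395_a_at, whose suffix marks probes shared by several transcripts of a gene, had 4.68, 4.88 and 5.04 in plasmid arrays, against 4.98, 5.61 and 5.46 in empty vector arrays. The highest plasmid array exceeded the lowest empty vector array by 0.07, and the log2 fold change was -0.48 (SE 0.17). Probe set 1431396_at, from the same record, had 0.12 (SE 0.17), 1445724_at had 0.01 (SE 0.13) and 1458124_at had 0.11 (SE 0.11), all with overlapping groups. Signal of the last was 3.76 ± 0.16 with miR-124a-2 and 3.66 ± 0.05 with the empty vector, near the level of the absent control transcript. The mean of all 7 Iqgap1 probe sets was -0.58 (SE 0.10).

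**Figure D2:**
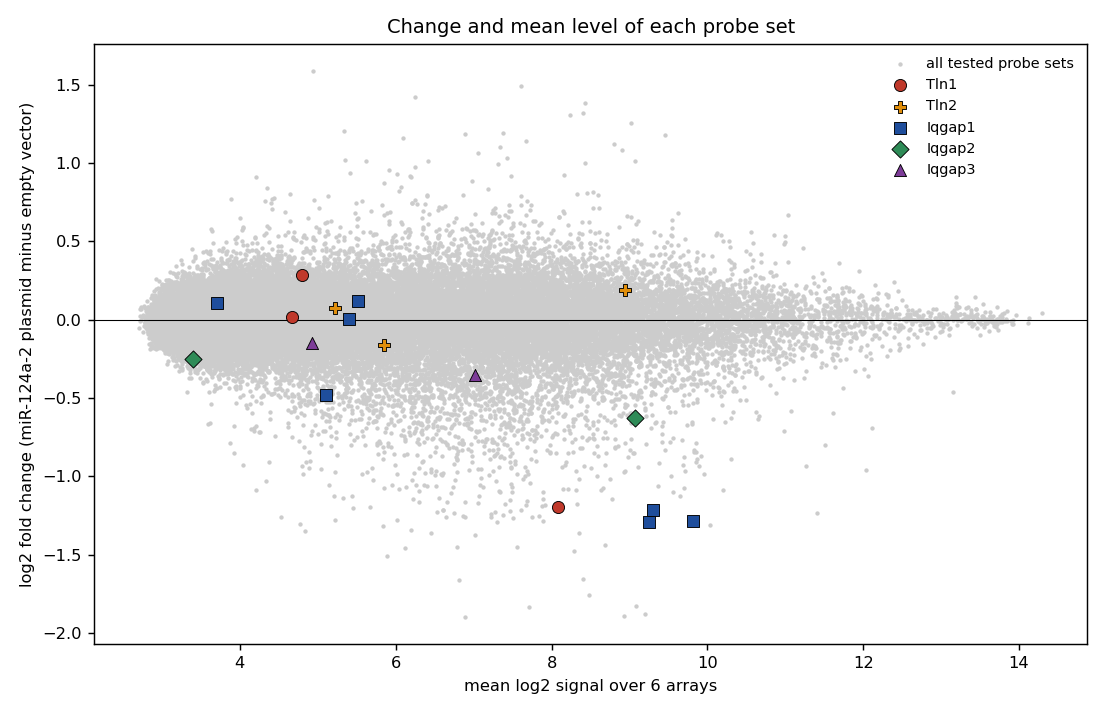
Log2 fold change, miR-124a-2 plasmid minus empty vector (vertical axis), against the mean log2 signal over 6 arrays (horizontal axis) for all 45037 tested probe sets (grey) and the 17 probe sets of the 5 genes (coloured by gene). One Tln1 and 3 Iqgap1 probe sets lie between -1.29 and -1.20 at mean signals above 8, and the other 13 lie between -0.63 and 0.28.

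Iqgap2, a paralogue best known from liver, had a bright probe set that was lower on every plasmid array but did not pass. Probe set 1433885_at had 8.53, 8.66 and 9.06 with miR-124a-2, against 9.12, 9.47 and 9.56 with the empty vector. The nearest arrays of the groups were 0.06 apart, and the log2 fold change was -0.63 (SE 0.17), or 64.6% of the empty vector level. It was -0.52 among narrow arrays and -0.46 among wide arrays. The second Iqgap2 probe set, 1459894_at, averaged 3.27 ± 0.09 with miR-124a-2 and 3.52 ± 0.23 with the empty vector (SD, n = 3 each), about the level of the absent control transcript.

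Iqgap3, a paralogue linked to proliferating cells, overlapped between the groups in both probe sets. Probe set 1434850_at had 6.65, 6.77 and 7.08 in plasmid arrays, against 6.78, 7.49 and 7.30 in empty vector arrays. The log2 fold change of -0.36 (SE 0.19) was -0.07 among narrow arrays and -0.31 among wide ones, and the wide arrays were higher within both groups, by 0.37 for plasmid and 0.62 for empty vector. The dimmer probe set 1459405_at had a log2 fold change of -0.15 (SE 0.14), and its sign differed between the array sets (0.15 narrow, -0.32 wide).

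**Figure D3:**
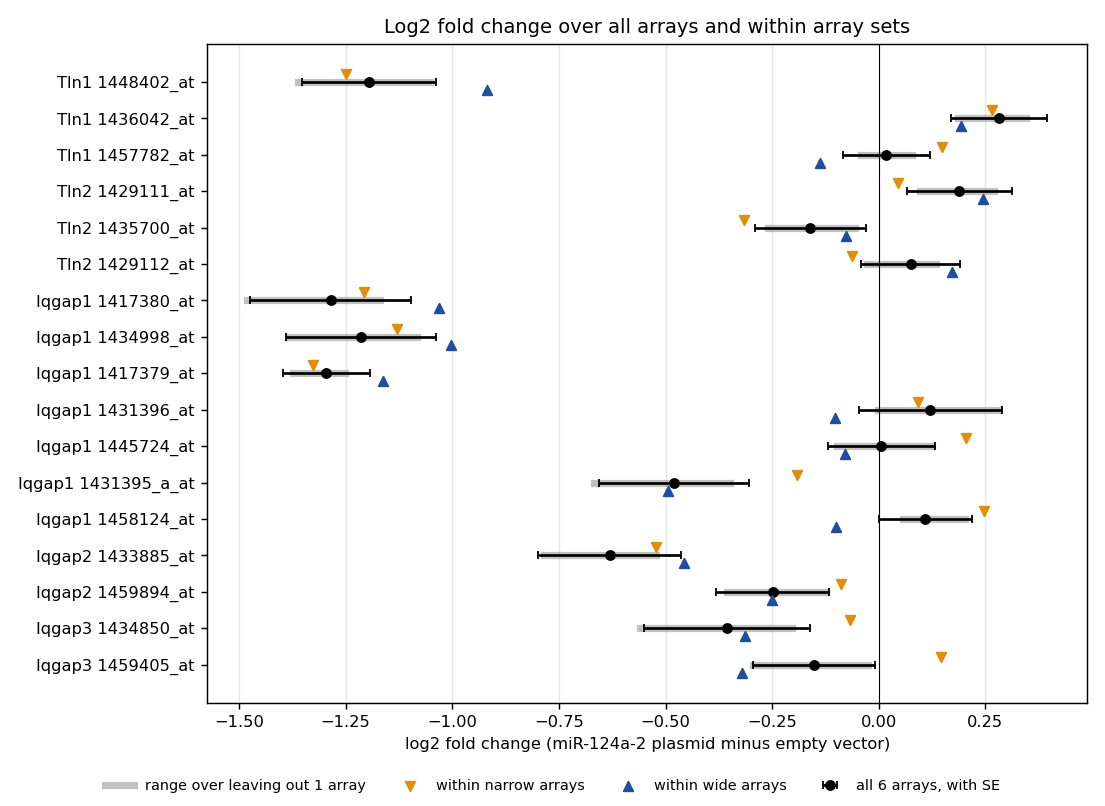
Log2 fold change, miR-124a-2 plasmid minus empty vector (horizontal axis), of the 17 probe sets over all 6 arrays (black, with SE), within narrow arrays (downward triangles) and within wide arrays (upward triangles); grey bars span the values with 1 array left out. The 4 probe sets that passed lie between -1.33 and -0.92 within either array set. Several others, with mean log2 signals from 3.71 to 5.52, change sign between the sets.

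The patterns over the 6 arrays were compared by the root mean square difference of log2 values after each probe set's own mean was subtracted, so that a smaller value is a closer pattern. The bright Tln1 probe set differed from the Iqgap1 probe sets by 0.0754 (1434998_at), 0.110 (1417380_at) and 0.131 (1417379_at), from the bright Iqgap2 probe set by 0.294 and from the bright Tln2 probe set by 0.747. Any difference in log2 fold change enters this measure. Tln1 and Iqgap1 were chosen with both known to be lower, so nothing is read from their closeness. Outside the 5 genes, the probe sets nearest to the bright Tln1 one were 1 of 3 of Emb, which encodes the cell adhesion protein embigin (1415856_at, 0.0605, log2 fold change -1.13), the brightest of Lims1 (1418232_s_at, 0.0649, log2 fold change -1.08) and the brightest of Ptbp3, a paralogue of Ptbp1 (1455819_at, 0.0762, log2 fold change -1.07). Those nearest to the brightest Iqgap1 probe set were the only one of Rela, an NF-kappaB subunit gene (1419536_a_at, 0.0739, log2 fold change -1.36), 1 of 2 of G3bp1, a stress granule protein gene (1455060_at, 0.0812, log2 fold change -1.17), and 1 of 6 of Dtl, which encodes an adaptor of a ubiquitin ligase (1443864_at, 0.0942, log2 fold change -1.13). They were picked for this likeness out of all single-gene probe sets, over 6 arrays, so the likeness is of a probe set and not of its gene. The brightest probe sets of Emb, G3bp1 and Dtl had smaller log2 fold changes, -0.33 for 1415857_at, -0.46 for 1422801_at and -0.91 for 1434695_at.

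Genes that work beside talin in integrin adhesion were read from the same fit, each by its brightest probe set. Of 34 measured talin partners, 1 fell, 0 rose and 33 did not pass, and the median log2 fold change was -0.03 with 18 below 0. Over 18193 genes counted the same way, 0.335% fell and 0.0879% rose, and the median was 0.02. Lims1, the adaptor PINCH1 that binds integrin-linked kinase, had 7.41, 7.61 and 7.99 in miR-124a-2 plasmid arrays, against 8.58, 8.83 and 8.83 in empty vector arrays. The groups did not overlap, and Lims1 had a log2 fold change of -1.08 with SE 0.16 (limma adjusted p = 0.0493). Of its 5 probe sets 2 were higher, both dim (means 3.58 and 3.41, log2 fold changes 0.09 and 0.06). Probe set 1418230_a_at had -1.18 (SE 0.30) without overlap and 1418231_at had -0.97 (SE 0.36) with overlapping groups, and neither passed. The suffix of the one used (1418232_s_at) marks probes shared by several transcripts, which may come from different genes, although the platform annotation assigns this probe set to Lims1 alone. No partner passed without any 1 of the empty vector arrays or without plasmid replicate 1 or 2. In those settings 4 to 7 of the 34 talin partners had an unadjusted p under 0.05, beside 2311 to 4247 of all 45037 probe sets. Without plasmid replicate 3, 3 talin partners passed, beside 356 of all probe sets.

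Itgb1, the beta integrin chain whose tail talin binds, had 9.41, 9.42 and 9.64 with miR-124a-2, against 10.10, 10.50 and 10.47 with the empty vector. All 6 of its probe sets were lower, but by unlike amounts, with log2 fold changes from -0.87 to -0.02 and a mean of -0.43. The brightest, which had the largest change at -0.87 (SE 0.13), missed the threshold (adjusted p = 0.0595 in limma). It passed in 11 of 20 alternatives, and its limma adjusted p over all 20 ran from 0.0116 to 0.355. The 11 include the looser threshold of 0.1, where the value itself is unchanged, and the fit with replicate number as a block (limma adjusted p = 0.0183). They also include the blocks for array set (limma adjusted p = 0.0116) and poly-A control level (0.0230), which were added after the data were seen. Fermt2, or kindlin-2, which acts with talin on integrin tails, had a log2 fold change of -0.63 with SE 0.17 (limma adjusted p = 0.239), and its groups did not overlap. Vinculin (Vcl), which links talin to actin, had -0.27 (SE 0.16) with overlapping groups, and its value is given for its role. Fermt1 and Ptk2 were not analysed here.

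Of 23 measured IQGAP partners, each by its brightest probe set, 0 rose and 0 fell by limma, and the median log2 fold change was -0.03. An unadjusted p under 0.05 was reached by 2 of the 23, beside 1927 of 18193 genes read the same way, so nothing is read from that count. The GTPases that Iqgap1 binds had log2 fold changes of 0.10 for Cdc42 (SE 0.12) and -0.06 for Rac1 (SE 0.12). The probe sets of Cdc42 disagreed. Its dimmest of 4, 1435807_at, lay between 6.65 and 7.30 on the 3 miR-124a-2 arrays, against 5.40 to 5.70 on the 3 empty vector arrays, a log2 fold change of 1.42 (SE 0.17, limma adjusted p = 0.0255). That probe set is named after its values were seen, and the log2 fold changes of the other 3 lay between -0.06 and 0.10. Those of the 3 Rac1 probe sets lay between -0.12 and -0.02. Among the brightest probe sets, the log2 fold changes of largest size were -0.40 for Mapre1 (SE 0.11, adjusted p = 0.279 in limma), which encodes the microtubule plus-end protein EB1, and 0.38 for Clasp2 (SE 0.13, adjusted p = 0.417 in limma), another plus-end protein. Neither pair of groups overlapped in these 2 probe sets. All 5 Mapre1 probe sets were lower, by unlike amounts (log2 fold changes -0.57 to -0.07, mean -0.38). Of the 5 Clasp2 probe sets 4 were higher, with log2 fold changes from -0.20 to 0.39 and a mean of 0.16. The partner lists were drawn up with earlier results of these arrays known, and Rap1a and Pip5k1c stand in both.

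**Figure D4:**
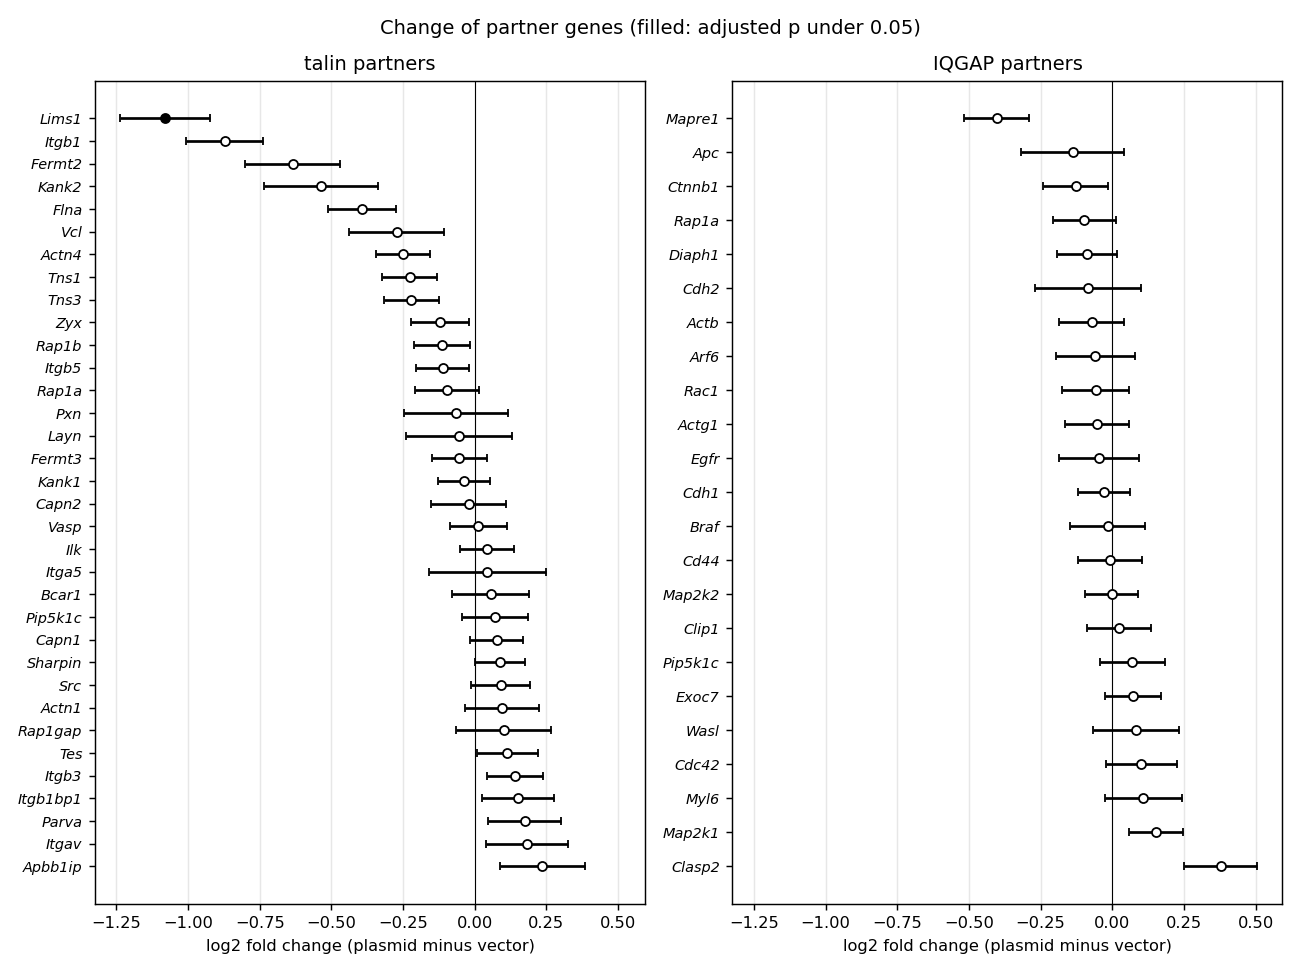
Log2 fold change with SE, plasmid minus empty vector (horizontal axis), of 34 talin partners and 23 IQGAP partners, each by its brightest probe set; filled points passed an adjusted p of 0.05. Lims1 alone is filled, at -1.08, with Itgb1 next at -0.87, and the IQGAP partners lie between -0.40 and 0.38.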

How the data were processed

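Total RNA from 6 cultures of CAD cells was measured on 1-colour Affymetrix arrays, per the labels' protocols. Per the submitters' processing notes, the authors used RMA, and the deposited values are log2 signals; neither the RMA version nor the probe definitions or filters are given in the sources used here. Arrays give no read depth, and their number limits precision.

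No further normalization was applied. The 64 control probe sets were left out, and 45037 were fitted with limma 3.58.1 in R 4.3.3 (lmFit and eBayes, two-sided, no block, no filter), with Benjamini-Hochberg adjustment over all of them and a threshold of 0.05. Gene names came from the platform's 2016 annotation, which gave exactly 1 gene for 34945 of these probe sets, several for 932 and none for 9160. Partner and marker genes were read from the brightest probe set (by the mean of all 6 arrays). No detection calls were used. The script was tested on simulated data.

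Members, lists and rules were chosen with earlier results of these data known. All member probe sets are named, together with up to 4 passing partners per list, the 2 not passing with the largest change, and the 3 nearest patterns; Vcl, Cdc42 and Rac1 were added for their roles after values were seen. Alternatives were a replicate block, each array left out, 3 other normalizations, a filter, an intensity trend, other probe set rules, the control probe sets, and other thresholds; blocks for array set and for poly-A control level were added after the data were seen. Promoter sequences are RefSeq's.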

Additional observations from a re-analysis of the deposited data

How the results depend on the processing

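With 1 array left out at a time, between 0 and 356 probe sets changed (121 over 6 arrays), between 0 and 4 members (4), and between 0 and 3 talin partners (1). Where limma gave 0 changed probe sets, 2311 to 4247 had an unadjusted p under 0.05. IQGAP partners were at 0 in every alternative run, with 1 or 2 of 23 at an unadjusted p under 0.05. In the main fit 1927 of 18193 genes, each by its brightest probe set, were at that level. Arrays of both groups share replicate numbers, and their deviations from group means correlated at 0.58, 0.03 and 0.56 for numbers 1, 2 and 3. Correlations between unlike numbers ran from -0.60 to 0.34, and plasmid replicate 2 correlated best with empty vector replicate 1 (0.09). Mean poly-A control signal was 5.88 and 5.93 on replicate 1 of plasmid and empty vector, beside 5.51 to 5.59 on the other arrays. The labels state no block, so the main fit had none. Whether arrays of the same number were handled together was not tested. With the replicate block, 673 probe sets, 5 members (the bright Iqgap2 probe set added) and 2 talin partners passed. Probe sets changed numbered 39 with median centring, 268 with quantile normalization, 244 with cyclic loess, 218 with an intensity trend, 229 with a robust trend, 510 with array set and 340 with poly-A control level as a block, 0 at an adjusted p under 0.01 (3688 at an unadjusted p under 0.05) and 305 at under 0.1. Members numbered 1 with median centring, 2 with 1 probe set a gene, 1 with the mean of a gene's probe sets and 0 at under 0.01. Talin partners numbered 0 with median centring, the mean of probe sets or the threshold of 0.01, and 2 with quantile normalization, cyclic loess, the filter, either trend, 1 probe set a gene, the threshold of 0.1, or either added block. Wherever the number was 2, the replicate block included, they were Lims1 and Itgb1. All 4 members that passed kept their sign throughout. Of 311 recomputed member values, 309 moved by less than 1 SD, and the other 2 were means of probe sets. Those were -0.30 for Tln1 and -0.58 for Iqgap1. Many of the 309 could not move. The replicate and poly-A control level blocks, the filter, the trends and the thresholds leave a log2 fold change as it was. So do the added control probe sets and the rule of 1 probe set a gene. Neither size nor sign could change in those settings. The causes of these differences in counts were not tested.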
